A study of Mus musculus with 46 samples.

Results

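The miR-30 guide strands are 5 mature mouse (mmu) miRNAs, mmu-miR-30a-5p, mmu-miR-30b-5p, mmu-miR-30c-5p, mmu-miR-30d-5p and mmu-miR-30e-5p, cut from the 5′ arms of related precursors. They were taken by name from the deposited table, which holds all 5 among 1881 mouse miRNAs, and all 5 were among the 815 miRNAs analysed (detected on at least 5 arrays). The study asked how the breakdown of RNA in stored tissue alters miRNA profiles. Male C57BL6 mice of an Il1a knock-out strain gave heart, liver and brain, and every sample carried this genotype. Their age is not given in the sources used here. Each organ was cut into pieces of about equal size kept at 4 °C or at RT (room temperature), with storage times of 0, 1, 3, 6, 12, 24, 48 or 96 h before total RNA was isolated. The labels give 12 h for a time that the methods place 2 h later. For the arrays, the 3 organs came from 1 individual at each temperature, and the cold and RT pieces from different animals. Each combination of tissue and temperature had a slide of its own, so animal, slide and temperature cannot be told apart within a tissue, nor slide and tissue within a temperature. Arrays of different times stand in for replicates in all tests, and p-values measure the spread between these arrays.

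A miRNA is loaded into an Argonaute protein as a guide and pairs with target mRNAs mainly through its seed, bases 2 to 8 from the 5′ end. miRNAs that share a seed form a family with largely shared targets. The partner strand of the precursor, called the passenger, is mostly discarded. The miR-30 guides are abundant in many tissues, muscle among them, and are known to repress connective tissue growth factor in heart and genes of autophagy. Sequences of 3 of the 5 guides, miR-30a-5p, miR-30c-5p and miR-30e-5p, were read from RefSeq for the GRCm38.p6 assembly. That of miR-384-5p was added, the further miRNA with these bases among the 1679 mature names there. No mature sequence was found there for miR-30b-5p and miR-30d-5p, so other miRNAs of the array with this seed may be missed. The sequences are shown because the probes must tell apart strands that differ in few bases. Capitals mark the seed.
miR-30a-5p: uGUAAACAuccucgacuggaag
miR-30e-5p: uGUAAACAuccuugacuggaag
miR-30c-5p: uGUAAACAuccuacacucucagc
miR-384-5p: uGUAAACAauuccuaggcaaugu
The first 12 bases of miR-30a-5p, miR-30c-5p and miR-30e-5p are the same. Counting from 1 at the 5′ end, C13U is the whole difference between miR-30a-5p and miR-30e-5p. miR-30a-5p lies at chr1:23272274-23272295 on the plus strand. miR-30c-5p has 2 loci, chr1:23291714-23291736 on the plus strand, 19418 bases past miR-30a-5p, and chr4:120769584-120769606 on the minus strand. miR-30e-5p lies at chr4:120772660-120772681 on the minus strand, 3053 bases from that second copy of miR-30c-5p. Both chromosome 4 loci fall within the span of Nfyc, which encodes a subunit of the transcription factor NF-Y. miR-384-5p lies at chrX:105344332-105344354 on the minus strand. With 2 identical copies, the array signal of miR-30c-5p cannot be split by locus.

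Each guide was measured by 30 spots, from 3 probes for miR-30a-5p and from 2 probes for each of the others, and all 5 were called detected on all 45 arrays analysed. Values below are the authors' log2 values after variance stabilizing normalization (VSN), which scales the arrays to each other. The signal on its own is the background-subtracted sum in scanner units. Levels are compared between samples, and between miRNAs only changes are compared, since each probe has its own response. The signal ranged from 156 to 2955 units for miR-30a-5p, from 18.2 to 2602 for miR-30b-5p, from 41.3 to 3355 for miR-30c-5p, from 24.9 to 622 for miR-30d-5p and from 36.7 to 2710 for miR-30e-5p. None of the guide spots was saturated on any array (0 spots). The scanner software's error of a guide's signal had a median over arrays of 6.21% for miR-30a-5p and of at most 8.38% for the others.

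The 45 arrays were 15 of heart, 14 of liver and 16 of brain. RNA integrity is given as the RNA integrity number (RIN, 10 for intact and 1 for fully degraded RNA by its definition), and 33 arrays had a RIN over 6. These were 13 heart, 14 brain and 6 liver arrays. Of the liver arrays with a RIN over 6, 5 were of 4 °C and 1 of RT, so they rest mostly on 1 animal and slide. The marker miRNA of each tissue stood apart on every array: miR-122-5p of hepatocytes, miR-1a-3p of heart muscle and miR-124-3p of neurons were at least 11.19, 13.64 and 12.97 in their own tissue and at most 7.38, 7.84 and 4.61 elsewhere. Summed over the detected miRNAs, an array had between 153088 and 541770 units. The number of detected miRNAs rose from 310 at 0 h to 726 at 96 h in liver at RT. A liver array (0 h at 4 °C) was low for every guide and a brain array (1 h at RT) was high. A heart array (0 h at 4 °C) was set aside, following the methods.

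In RNA of RIN over 6, the guides had their highest mean in heart, a lower one in brain and the lowest in liver, and only for miR-30a-5p did the step from brain to liver miss the threshold. miR-30b-5p had a lowest, median and highest value of 10.28, 10.73 and 11.02 on the 13 heart arrays, of 9.59, 9.90 and 10.35 on the 14 brain arrays and of 7.09, 8.61 and 8.87 on the 6 liver arrays. The liver arrays lay below all brain and heart arrays, and the lowest 2 heart arrays lay among the brain arrays. For miR-30e-5p the same 3 values were 10.27, 10.68 and 11.06 in heart, 9.07, 9.51 and 10.05 in brain and 6.71, 8.36 and 9.11 in liver. All 13 heart arrays lay above all 14 brain arrays, while 1 liver array reached into the brain range. miR-30c-5p ran from 10.66 to 11.35 in heart, from 10.19 to 11.44 in brain and from 7.70 to 9.64 in liver. miR-30d-5p ran from 8.40 to 9.06, from 7.68 to 9.40 and from 5.25 to 7.04 in the same order. For both, brain and heart overlapped and liver lay apart from brain and heart.

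miR-30a-5p was spread differently. It ran from 10.49 to 11.21 in heart (median 10.89), from 9.57 to 10.93 in brain and from 8.47 to 10.43 in liver (median 9.92). Heart lay apart from liver. Brain and liver overlapped: 5 of 6 liver arrays lay above the lowest brain array, and 1 of 14 brain arrays lay above all liver arrays.

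**Figure D1:**
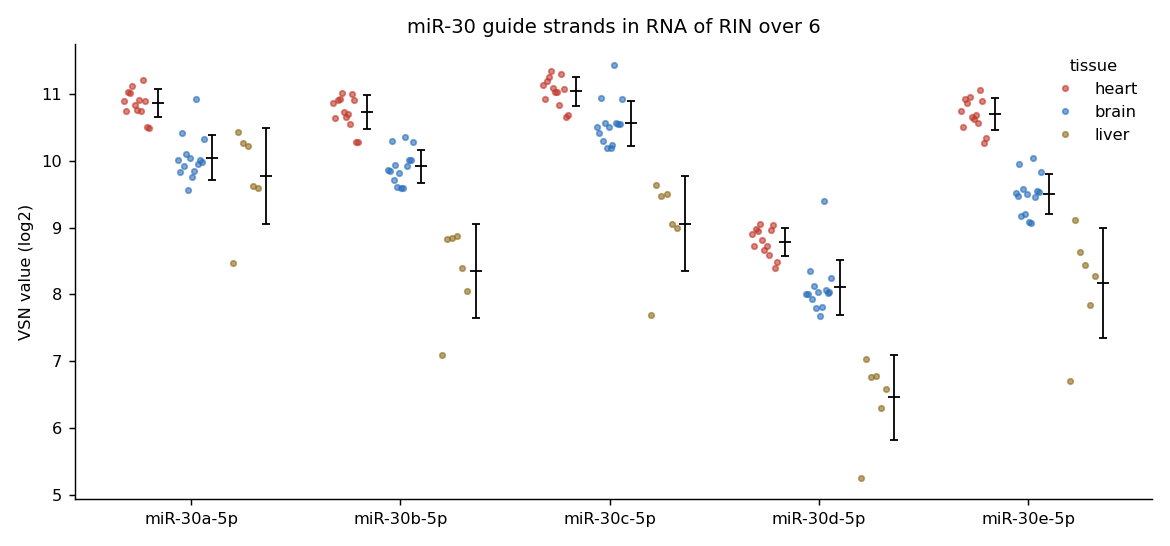
VSN value (log2, vertical axis) of each miR-30 guide on the 13 heart, 14 brain and 6 liver arrays with a RIN over 6, with the mean and SD as black bars. Liver points lie below the brain and heart points for miR-30b-5p, miR-30c-5p and miR-30d-5p, and among the brain points for miR-30a-5p.

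The fall from heart to liver was largest for miR-30e-5p, with means of 10.70 ± 0.24 (SD, n = 13) and 8.17 ± 0.82 (SD, n = 6). Its liver-minus-heart difference was -2.52 ± 0.22 (SE, log2), 5.75-fold, with an adjusted p of 7.99e-12 by limma. miR-30b-5p and miR-30d-5p differed by -2.38 ± 0.20 and -2.33 ± 0.21 (adjusted p = 1.72e-12 and 1.71e-11). miR-30c-5p differed by -1.98 ± 0.21 (adjusted p = 5.95e-10). miR-30a-5p differed by -1.09 ± 0.21, or 2.13-fold, with an adjusted p of 4.21e-05. All 5 guides were called lower in liver than in heart, against 54.6% of the 815 miRNAs called in either direction and 44.9% called lower in liver. This split of 79 miRNAs higher and 366 lower became 178 and 169 when arrays were scaled to the 75th percentile of the miRNAs detected on all arrays. The median over the guides was -2.33 and that over all 815 miRNAs -0.60. Without the liver array of 0 h at 4 °C the difference of miR-30a-5p was -0.84 and that of miR-30e-5p -2.24, and all 5 were still called. For miR-30a-5p the sign depended on the scaling: under quantile normalization its difference was 0.35.

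Brain was below heart for all 5 guides, against 69.1% of miRNAs called in either direction and 22% called lower in brain. The brain-minus-heart differences were -1.19 ± 0.18 for miR-30e-5p, -0.81 ± 0.16 for miR-30a-5p, -0.80 ± 0.16 for miR-30b-5p, -0.68 ± 0.17 for miR-30d-5p and -0.48 ± 0.17 for miR-30c-5p (SE, log2). The adjusted p-values by limma ran from 2.84e-07 for miR-30e-5p to 0.0114 for miR-30c-5p. The other miRNAs did not share this direction as a whole, with a median difference of 0.44. Without the brain array of 1 h at RT all 5 were still called, with differences from -1.24 to -0.54. With the heart array of 0 h at 4 °C put back, 1 of 5 guides stayed past the threshold, miR-30e-5p at -0.92.

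Between brain and liver, 4 of 5 guides were called higher in brain, against 72.5% of miRNAs called in either direction and 57.9% called higher in brain. miR-30d-5p was higher by 1.65 ± 0.21, miR-30b-5p by 1.58 ± 0.19 and miR-30e-5p by 1.33 ± 0.22 (SE, log2), with miR-30c-5p between the last 2. The median over all 815 miRNAs was 1.11. miR-30a-5p differed by 0.29 ± 0.21 (adjusted p = 0.213 by limma) and did not pass. Without the liver array of 0 h at 4 °C it differed by 0.04. This sign also depended on the scaling, since the brain-minus-liver value of miR-30a-5p was -0.65 when arrays were scaled to the 75th percentile of all miRNAs, and those of miR-30d-5p and miR-30e-5p were -0.31 and -0.20 under quantile normalization. These are bulk tissues, in which fewer cells of a type and less RNA per cell cannot be told apart. Markers of several other cell types were also brightest in heart, but those of oligodendrocytes were brightest in brain. The 2 oligodendrocyte miRNAs summed to between 592 and 5192 units in brain and between 20.5 and 49.8 in heart. Both strands of miR-126a, of endothelium, had a summed signal from 3661 to 6278 units in heart, 632 to 1904 in brain and 272 to 962 in liver. The 4 red blood cell miRNAs summed to between 5015 and 33212 units in heart, 391 and 2270 in brain and 269 and 1145 in liver. The 4 of smooth muscle and fibroblasts summed to between 759 and 1393, 73.4 and 207, and 51.0 and 179 in the same order, and the 3 of leukocytes to between 314 and 1729, 50.3 and 263, and 142 and 607. Their part in the tissue order was not tested.

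The partner strands kept the heart-high order. All 6 passenger strands on the array were called lower in brain than in heart (median -1.19) and all 6 lower in liver than in heart (median -1.59). In brain against liver, 1 of 6 was called, miR-30e-3p, with 1.63 ± 0.28 (SE, log2). Of all 815 miRNAs, 179 were called lower in brain than in heart, 366 lower in liver than in heart and 472 higher in brain than in liver. Several passengers were near the detection limit. miR-30b-3p and miR-30d-3p were detected on all 13 heart arrays of RIN over 6 but on 9 of 14 brain arrays each, and in liver on 1 and 2 of 6 arrays. miR-30c-1-3p was detected on 2 of 6 liver arrays. The liver values of these 3 strands thus lie mostly below detection, and so do 3 of the 6 calls against heart. The let-7 and miR-98 guides, a family of 9 miRNAs known for promoting differentiation, were ordered otherwise: 8 of 9 were called higher in brain than in heart (median 0.90), 8 of 9 lower in liver than in heart (median -1.42) and 9 of 9 higher in brain than in liver (median 2.34). Called higher in brain than in heart were 384 of all 815 miRNAs. miR-384-5p, which shares the miR-30 seed, was detected on all 16 brain arrays and on 0 of 15 heart and 0 of 14 liver arrays. Its value in brain of RIN over 6 was 7.55 ± 0.33 (SD, n = 14).

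At RT the guides were lost from liver, and mostly after 12 h. In miR-30b-5p the liver values at 0, 1, 3, 6, 12, 24, 48 and 96 h were 8.05, 8.98, 9.23, 8.48, 7.94, 6.91, 4.69 and 3.00. The RIN of the same RNA was 7.1, 6.0, 4.1, 2.8, 2.7, 2.7, 2.4 and 2.3. Most of the loss of RNA integrity thus lay in the first 6 h, when miR-30b-5p was no lower than at 0 h, while most of the fall of miR-30b-5p came later, when the RIN moved from 2.7 to 2.3.

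The other guides had the same early course. miR-30c-5p read 8.99, 9.81, 9.89, 9.41, 8.95, 7.75, 5.82 and 4.12 at the 8 times. miR-30a-5p read 9.60, 10.63, 10.83, 10.32, 9.71, 8.32, 6.66 and 6.79. All values of 0 to 12 h lay above those of 24 h and later in these guides. miR-30d-5p read 6.59, 7.21, 7.19, 6.96, 6.55, 5.13, 4.06 and 3.96, and miR-30e-5p 8.28, 9.17, 9.34, 8.89, 8.25, 6.42, 4.60 and 4.84. The highest of the 8 values was that of 3 h, or for miR-30d-5p that of 1 h.

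**Figure D2:**
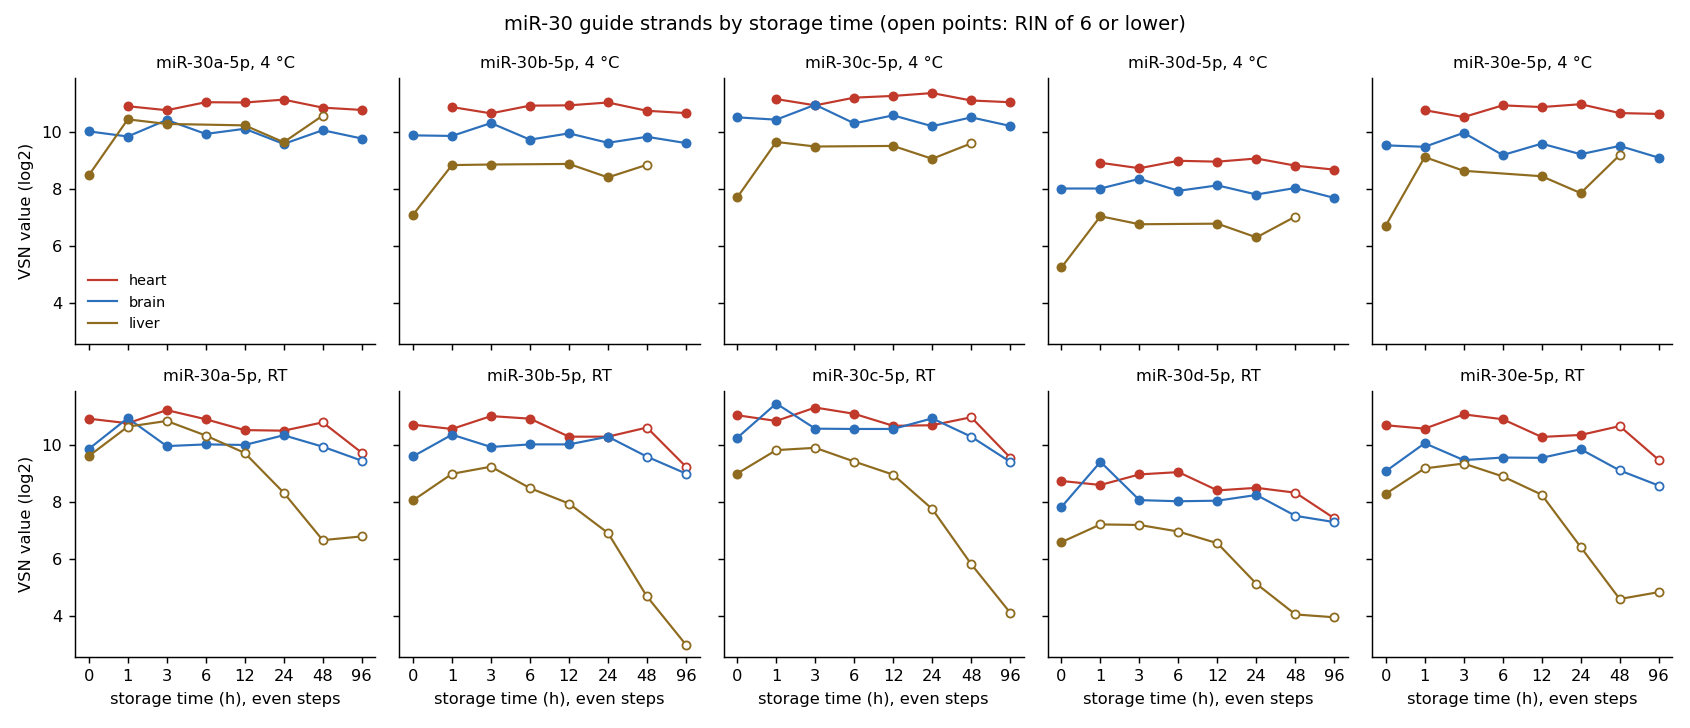
VSN value (log2) of each guide against storage time (h, the 8 times drawn at even steps), at 4 °C above and at RT below, with 1 array per point. Open points had a RIN of 6 or lower. At RT the liver line falls from 24 h on in all 5 panels, to 3.00 for miR-30b-5p, and the heart and brain lines stay above 7.

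Against the median of its own arrays of 0 to 12 h, miR-30b-5p in liver changed by -1.58, -3.80 and -5.48 (log2) on the arrays of 24, 48 and 96 h, the last of these a 44.7-fold loss. miR-30c-5p followed closely, with 39.2-fold at 96 h. At the same time miR-30e-5p had lost 16.6-fold, miR-30a-5p 11.6-fold and miR-30d-5p 8.01-fold. The guides thus split after 48 h. Between 48 and 96 h miR-30b-5p and miR-30c-5p each changed by -1.69, whereas miR-30a-5p changed by 0.13, miR-30d-5p by -0.11 and miR-30e-5p by 0.24. Each of these rests on 1 array per time and was not tested.

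The unscaled signals also fell, but less and after an early rise. In liver at RT the signal of miR-30b-5p at 0, 6, 24, 48 and 96 h was 132, 455, 217, 39.0 and 18.2 units. That of miR-30a-5p was 389, 1626, 582, 156 and 269 units. At 24 h the guides were still above their signals of 0 h, except miR-30e-5p, with 155 units at both times. At 48 and 96 h all 5 were below them. Against the median of 0 to 12 h the unscaled loss at 96 h was largest for miR-30b-5p, from 364 to 18.2 units. It was 17.8-fold for miR-30c-5p, 6.58-fold for miR-30e-5p, 4.64-fold for miR-30a-5p and 3.07-fold for miR-30d-5p. The summed signal of the 96 h array was 541770 units, the highest of the liver arrays, and the scaling to the other arrays lowers every value on it. All 5 guides were still called detected at 96 h.

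The probes of a guide agreed in direction. For miR-30b-5p the mean spot signal went from 183 to 10.7 units between 6 and 96 h on 1 probe and from 1368 to 51.4 on the other. For miR-30a-5p it went from 1159 to 232, from 2820 to 471 and from 4419 to 672 on the 3 probes. Each probe of miR-30a-5p, miR-30d-5p and miR-30e-5p was brighter at 96 h than at 48 h, and each probe of miR-30b-5p and miR-30c-5p dimmer. The split between the guides after 48 h was therefore present on all 11 probes.

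A line through the 8 liver arrays at RT gave a change per 24 h of -1.54 ± 0.13 for miR-30b-5p, -1.46 ± 0.13 for miR-30c-5p, -1.21 ± 0.18 for miR-30e-5p, -1.04 ± 0.16 for miR-30a-5p and -0.88 ± 0.14 for miR-30d-5p (SE, log2). The SEs here and in heart and brain come from a joint fit with a spread shared by all tissues. A spread of the liver arrays alone was not estimated. All 5 guides passed the threshold, against 69.3% of the 815 miRNAs in either direction and 32.8% with a fall. The median over all miRNAs was 0.15. Without scaling between arrays all 5 were also called, at -1.13 for miR-30b-5p to -0.46 for miR-30d-5p. With these 3 late liver arrays (24 to 96 h) left out none was (0 of 5).

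In heart at RT all 5 guides were lowest at 96 h. Up to 48 h they stayed within their range of 0 to 12 h, except miR-30a-5p at 24 h (10.49, lowest early value 10.51) and miR-30d-5p at 48 h (8.32, lowest early value 8.40). miR-30b-5p read 10.70, 10.55, 11.00, 10.91, 10.28, 10.28, 10.60 and 9.23 from 0 to 96 h, while the RIN went from 9.0 to 4.6 at 48 h and 2.2 at 96 h. The last array alone lay below the rest. The change per 24 h was -0.34 ± 0.13 for miR-30b-5p and -0.33 ± 0.13 for miR-30c-5p, which passed the threshold, and -0.33 ± 0.14, -0.29 ± 0.18 and -0.27 ± 0.16 for miR-30d-5p, miR-30e-5p and miR-30a-5p, which did not. The background was 38% of miRNAs called in either direction and 11.2% with a fall. Both calls depended on the scaling, since without it the changes per 24 h were 0.00 and 0.01, and those of all 5 guides turned to between 0.00 and 0.07. They were also lost (0 of 5) without the heart array of 0, 1, 3, 6 or 96 h or the brain array of 3, 6, 12 or 48 h, and 1 of 5 was left without the heart array of 24 h or the brain array of 24 or 96 h. Other choices added calls. With arrays scaled to the 75th percentile, of the miRNAs detected on all arrays or of all miRNAs, 5 of 5 passed. The count also rose without the late liver arrays at RT.

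In brain at RT miR-30b-5p read 9.59, 10.35, 9.92, 10.01, 10.01, 10.28, 9.58 and 8.99, with a RIN of 8.4 at 0 h and 3.3 at 96 h. The changes per 24 h ran from -0.32 ± 0.13 for miR-30c-5p to -0.18 ± 0.16 for miR-30a-5p, and 0 of 5 guides passed by limma (1 at an unadjusted p under 0.05), against 20% of miRNAs called in either direction. Without the brain array of 0 h or the liver array of 96 h, 1 of 5 passed. Without scaling the changes were between 0.02 and 0.16 per 24 h. With arrays scaled to the 75th percentile of all miRNAs, 5 of 5 passed. Some but not all passed when it was taken over the miRNAs detected on all arrays, or without the late liver arrays at RT. At 96 h the VSN values were below the range of 0 to 12 h for every guide in heart and brain. The unscaled signals there were not: they differed from the median of 0 to 12 h by -0.17 to 0.13 in heart and by 0.02 to 0.63 in brain (log2).

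The rate of change differed between liver and the other tissues. The liver-minus-heart difference in change per 24 h was -1.20 (95% interval -1.58 to -0.82) for miR-30b-5p, -1.13 (-1.51 to -0.76) for miR-30c-5p, -0.92 (-1.44 to -0.40) for miR-30e-5p and -0.78 (-1.24 to -0.31) for miR-30a-5p. The adjusted p-values of these 4 by limma were 0.000163, 0.000178, 0.0102 and 0.0154. For miR-30d-5p it was -0.55 (-0.97 to -0.12), with an adjusted p of 0.0537. Of all miRNAs, 25.6% differed in either direction between these tissues and 17.2% fell faster in liver. Brain-minus-liver differences were 1.29, 1.14, 0.96, 0.86 and 0.59 for miR-30b-5p, miR-30c-5p, miR-30e-5p, miR-30a-5p and miR-30d-5p, and all 5 passed, with adjusted p-values from 0.000311 to 0.0381 and a background of 27.9% in either direction and 17.9% above 0. These comparisons share the liver arrays. Without scaling 3 guides passed in liver against heart (miR-30a-5p had an adjusted p of 0.0566) and 4 in brain against liver (miR-30d-5p had 0.120). With time as a random block miR-30d-5p also passed in liver against heart (adjusted p = 0.0444). Without the heart array of 96 h 2 guides passed in liver against heart, and without the brain array of 96 h 2 passed in brain against liver. Between heart and brain 0 of 5 guides passed by limma (0 at an unadjusted p under 0.05), with 0% of miRNAs called. Their intervals ran from -0.48 to 0.56 per 24 h for miR-30e-5p, the widest, and from -0.36 to 0.38 for miR-30c-5p, the narrowest.

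**Figure D3:**
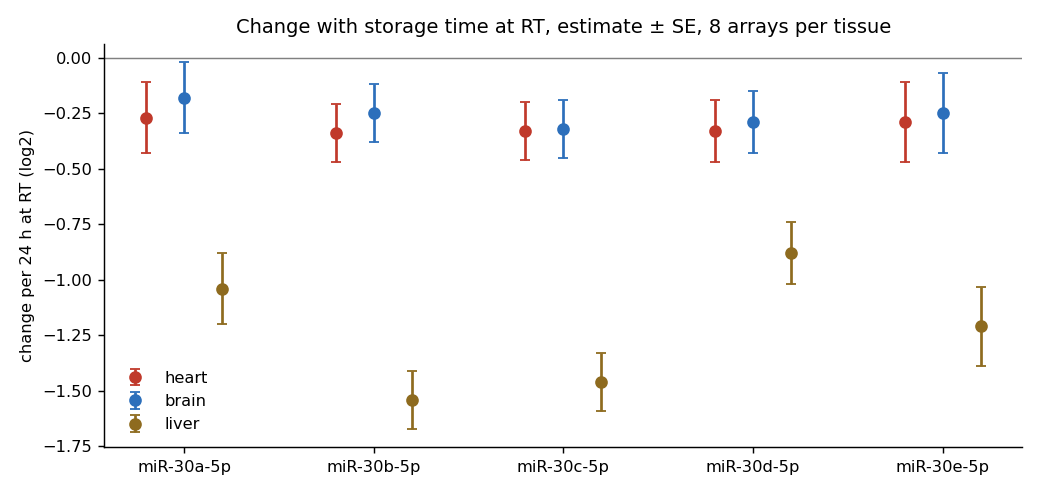
Change in VSN value per 24 h at RT (log2, vertical axis) for each guide, as the estimate ± SE of a line through 8 arrays per tissue. The SE uses a spread shared by all tissues. The liver points lie from -1.54 to -0.88 and the heart and brain points from -0.34 to -0.18.

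With a common slope over the 3 tissues, all 5 guides fell with time at RT, by 0.71 ± 0.14 per 24 h for miR-30b-5p to 0.50 ± 0.10 for miR-30d-5p (SE, log2), against 78.3% of miRNAs called in either direction and 37.3% with a fall. This common slope averages the faster fall in liver with the smaller changes in heart and brain, and fewer guides passed without scaling. At 4 °C none of the guides passed (0 of 5 by limma, also 0 at an unadjusted p under 0.05), against 12% of miRNAs called. The changes per 24 h at 4 °C lay between -0.035 ± 0.075 for miR-30d-5p and -0.007 ± 0.086 for miR-30a-5p. Their 95% intervals reached from -0.22 to 0.19 at the widest, for miR-30e-5p. In heart at 4 °C miR-30b-5p had a lowest, median and highest value of 10.64, 10.86 and 11.02 on 7 arrays, and in brain of 9.60, 9.84 and 10.30 on 8 arrays. In liver at 4 °C it read 7.09, 8.83, 8.85, 8.87, 8.40 and 8.84 at 0, 1, 3, 12, 24 and 48 h. The last of these had a RIN of 3.4 and lay with those of higher RIN. No liver array of 6 or 96 h at 4 °C was among the samples, since the study removed both for low quality. The slope at 4 °C thus holds no liver value past 48 h.

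The samples of 0 h, from different animals and slides, give a spread without storage. In liver the animal kept at RT was above the animal kept at 4 °C for every guide at 0 h, by 0.96 for miR-30b-5p to 1.56 for miR-30e-5p. In brain it was lower by 0.16 for miR-30a-5p to 0.45 for miR-30e-5p, and in heart the comparison needs the array that was set aside. Against the median of 0 to 12 h, the loss from liver at RT by 24 h was larger than this difference for all 5 guides. Against the liver array of 0 h it was not for all of them, since miR-30c-5p went from 8.99 to 7.75, less than its difference of 1.29.

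Over all 45 arrays the guides rose with RIN, with a common slope of 0.247 ± 0.0699 per RIN unit for miR-30b-5p, 0.223 ± 0.0674 for miR-30c-5p, 0.178 ± 0.0649 for miR-30e-5p, 0.160 ± 0.0496 for miR-30d-5p and 0.155 ± 0.0574 for miR-30a-5p (SE, log2). All 5 passed by limma, with adjusted p-values from 0.00168 to 0.0138, against 81.1% of miRNAs called in either direction and 35.2% with a positive slope. These calls rested on few arrays. With the late liver arrays at RT (24 to 96 h) left out 0 of 5 guides passed, and without scaling between arrays 0 of 5. Within the arrays of RIN over 6 all 5 slopes turned negative, from -0.131 for miR-30b-5p to -0.241 for miR-30e-5p, and 0 of 5 passed. Without the last liver array at RT alone 3 of 5 passed.

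**Figure D4:**
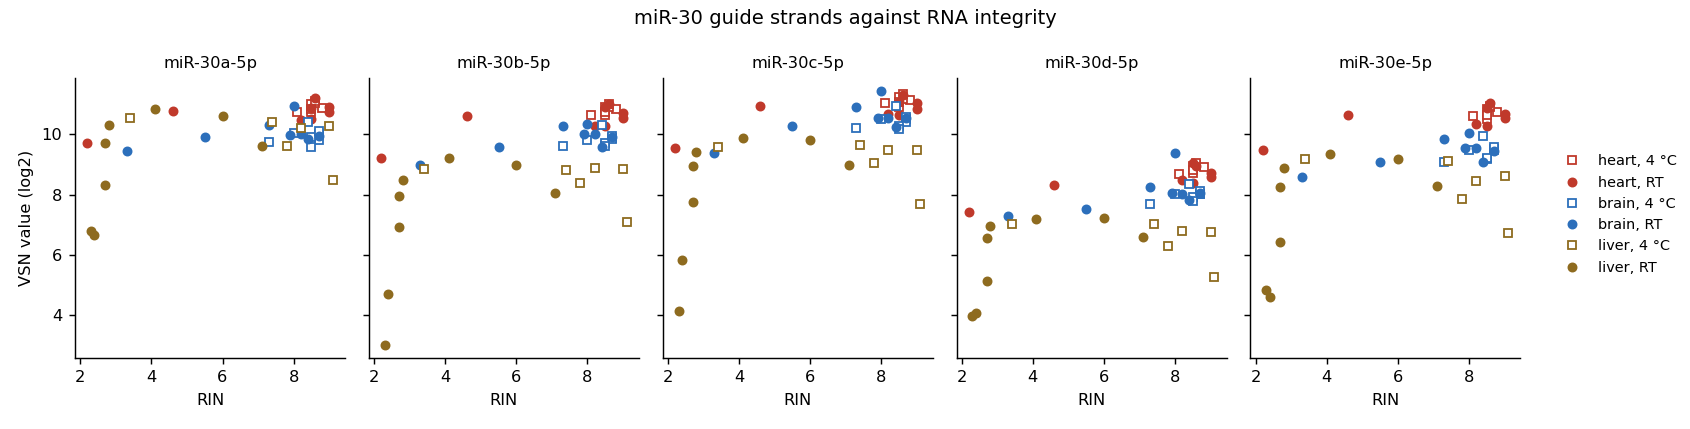
VSN value (log2) of each guide against RIN on the 45 arrays, by tissue and temperature. Between a RIN of 2.8 and 9.1 the liver points show no fall toward low RIN, and below 2.8 they spread downwards to 3.00 for miR-30b-5p.

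Within tissues the slope with RIN was called in liver for 4 of 5 guides, against 70.4% of miRNAs in either direction and 24.3% with a positive slope. It was 0.315 ± 0.0967 for miR-30b-5p, 0.265 ± 0.0939 for miR-30c-5p, 0.202 ± 0.0906 for miR-30e-5p and 0.188 ± 0.0798 for miR-30a-5p, and 0.148 ± 0.0692 for miR-30d-5p, which did not pass (adjusted p = 0.0540). Leaving out the last liver array at RT left 0 of 5, leaving out that of 48 h left 1, and leaving out that of 24 h, or the liver array of 1, 3 or 12 h at 4 °C, left 2. Without the liver array of 0 h at 4 °C 5 of 5 passed. In heart 0 of 5 passed (0 at an unadjusted p under 0.05), with slopes from 0.139 to 0.188 and a background of 48.5%, and in brain 0 of 5 (0 unadjusted), with slopes from 0.0821 to 0.173 and a background of 40.9%. Without scaling the slopes of all 5 guides turned negative in heart and brain, and none was called. With arrays scaled to the 75th percentile of the miRNAs detected on all arrays, 5 of 5 passed in heart and 1 in brain. Scaled over all miRNAs, 4 and 1 passed. Without the late liver arrays at RT, which enter the heart fit through the shared spread, 5 of 5 passed in heart. Differences of slopes between tissues passed for 0 of 5 guides in each pair by limma (0 at an unadjusted p under 0.05), against 0.123%, 2.82% and 2.7% of miRNAs in brain against heart, liver against heart and brain against liver. Without the late liver arrays at RT, liver minus heart was negative and called for 5 of 5 guides, and brain minus liver was called for 3. Leaving these arrays out was chosen after seeing the data.

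Liver arrays were also compared in 2 groups, the 8 with a RIN of 6 or lower and the 6 with a RIN over 6. miR-30b-5p ran from 3.00 to 9.23 (median 8.21) in the low group and from 7.09 to 8.87 (median 8.61) in the high group. The ranges overlapped for every guide, and the low group held both the highest and the lowest values. The differences of the means were -1.09 for miR-30b-5p, -0.89 for miR-30c-5p, -0.58 for miR-30e-5p, -0.54 for miR-30a-5p and -0.44 for miR-30d-5p (log2). None passed the exact Wilcoxon-Mann-Whitney test (0 of 5, smallest unadjusted p 0.662, 2-sided, adjusted over 815 miRNAs), against 27.7% of miRNAs called in either direction. With limma 0 of 5 passed as well. With arrays scaled to the 75th percentile of the miRNAs detected on all arrays, 3 of 5 passed.

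Among the relatives in liver at RT, 5 of the 6 passenger strands fell and 1 rose. Of all 815 miRNAs, 267 were called with a fall and 298 with a rise. miR-30e-3p changed by -1.62 ± 0.16 per 24 h (SE, log2) and miR-30a-3p by slightly less. The first was not detected at 48 and 96 h and the second not at 96 h. miR-30c-2-3p, miR-30d-3p and miR-30b-3p changed by -0.91 ± 0.16, -0.85 ± 0.12 and -0.72 ± 0.15. The last 2 were detected at 1, 3 and 6 h alone, so their slopes rest mostly on values below detection. miR-30c-1-3p, the passenger of the chromosome 4 copy of miR-30c-5p, changed by 0.77 ± 0.12 (adjusted p = 1.72e-05 by limma). Its signal was 1.26, 1.29, 1.74, 4.0, 2.49, 4.99, 24.5 and 53.1 units at the 8 times, undetected at 0 h and detected from 1 h on. In heart and brain at RT its changes were 0.03 ± 0.12 and 0.17 ± 0.12, which did not pass. Its signal was highest at 96 h there as well, with 25.2 units in heart (14.9 at 48 h) and 12.8 in brain (4.02 at 48 h). The VSN value at 96 h was above all earlier ones in brain (2.70, highest earlier 2.26) but not in heart (3.67, highest earlier 3.85). This strand differs from its chromosome 1 counterpart in few bases, which are shown because the array values of the pair went opposite ways. Capitals mark the differing bases.
miR-30c-1-3p: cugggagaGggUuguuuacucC
miR-30c-2-3p: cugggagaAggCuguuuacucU
The pair differs in 3 bases, G9A, U12C and C22U, with miR-30c-1-3p first. They lie at chr4:120769546-120769567 on the minus strand and at chr1:23291754-23291775 on the plus strand (RefSeq, GRCm38.p6).

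**Figure D5:**
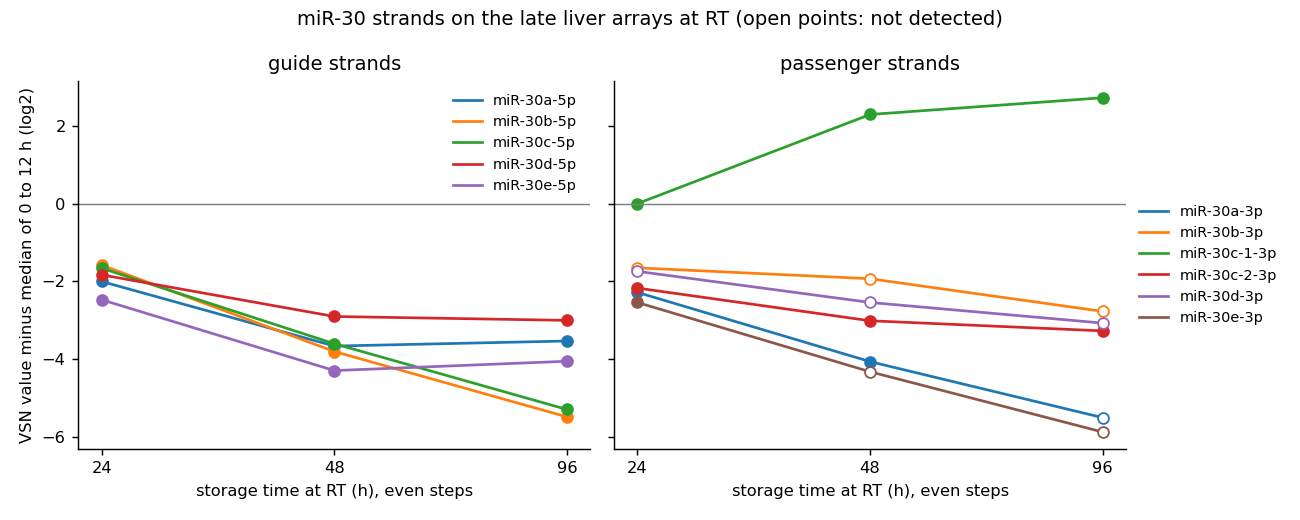
Change in VSN value (log2, vertical axis) on the 3 late liver arrays at RT (24, 48 and 96 h) against the median of 0 to 12 h, for the 5 guides and the 6 passengers, with 1 array per point and open points where the miRNA was not detected. All guides lie below 0, with miR-30b-5p at -5.48 at 96 h, and miR-30c-1-3p is the passenger above 0, at 2.72.

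The let-7 and miR-98 guides also fell in liver at RT. There 9 of 9 were called, against 32.8% of all miRNAs with a fall, with a median change per 24 h of -1.49 against -1.21 for the miR-30 guides and 0.15 for all 815 miRNAs. The fall was faster in liver than in heart for 9 of 9 of them and for 4 of 5 miR-30 guides, against 140 of all 815 miRNAs. In heart at RT 0 of 9 let-7 and miR-98 guides and 2 of 5 miR-30 guides passed by limma (1 and 3 at an unadjusted p under 0.05), and in brain 4 of 9 and 0 of 5 (7 and 1). Of all 815 miRNAs, 91 were called with a fall in heart and 58 in brain. Whether the lists differ was not tested. At 4 °C 0 of 9 let-7 and miR-98 guides passed by limma, against 12% of all miRNAs called.

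The guides varied together over the 45 arrays, which share slides and depth. Pearson's r between guides, as a description, ran from 0.882 for miR-30a-5p and miR-30d-5p to 0.993 for miR-30b-5p and miR-30c-5p. Among the 180 miRNAs detected on all arrays, outside the family, the most alike were miR-24-3p (r = 0.985), miR-140-3p (0.973) and miR-99a-5p (0.972) for miR-30b-5p. For miR-30c-5p they were miR-23b-3p (0.985), miR-24-3p (0.981) and miR-99a-5p (0.972), and for miR-30d-5p miR-24-3p (0.984), miR-27b-3p (0.983) and miR-99a-5p (0.972). For miR-30e-5p they were miR-23a-3p (0.986), miR-27a-3p (0.977) and miR-27b-3p (0.973). miR-30a-5p stood somewhat apart, with miR-22-5p (0.950), miR-26b-5p (0.936) and miR-126a-3p (0.934).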

How the data were processed

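Total RNA was labelled with Cyanine 3 and hybridised to 1-colour Agilent mouse miRNA arrays. The authors scanned the arrays and deposited the intensity values of the Feature Extraction software (background-subtracted total gene signal, its error and the detection flag) and a table of log2 values made by variance stabilizing normalization (VSN) in R. Of 46 arrays, 45 were analysed, 1 of heart being set aside as in the methods. Every deposited column was a generalized logarithm of its array's signal (largest residual 1.1e-05), with no centring of miRNAs, so scale and direction are known. The column medians ran from 0.14 to 0.93. This logarithm shrinks changes of dim miRNAs. Other columns of the files (spot flags, probe names) were read as deposited.

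The 815 miRNAs detected on at least 5 arrays were tested with limma 3.58.1 (R 4.3.3, statmod 1.5.0), with Benjamini-Hochberg adjustment over all 815 and a threshold of 0.05. Models held tissue (RIN over 6, slide as a random block, correlation 0.0203), tissue and RIN, or tissue and hours, and their products with tissue. Slopes within tissues were fitted together, with a spread shared by all tissues. Liver groups were compared by an exact Wilcoxon-Mann-Whitney test. The RIN fit was tested on simulated data. Other normalizations, filters and left-out arrays were tried. The members, lists and tests were chosen with earlier results of these data known. The text names the 5 guides, the passenger strands, a miRNA with the same seed, the 3 miRNAs outside the family most alike to each guide, tissue markers, and the let-7 and miR-98 list. Marker lists of 8 cell types were summed. Those of other cell types that were brightest in heart, and that of oligodendrocytes, are described. Arrays carry no counts, and their number limits the precision.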

Additional observations from a re-analysis of the deposited data

Results flagged for a closer look

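Within a tissue and temperature, 6 of 30 sets of values had an array far from the others, where chance gives about 1 in 20. The guides share arrays and varied together, so the sets are not independent and the rates cannot be compared as a test. The arrays of a set differ in storage time by design. The heart array of 96 h at RT was lowest of 8 for miR-30b-5p (9.23, next 10.28), miR-30c-5p (9.55, next 10.66) and miR-30d-5p (7.42, next 8.32). Its RIN was 2.2. The liver array of 0 h at 4 °C was lowest of 6 for miR-30b-5p (7.09, next 8.40) and miR-30c-5p (7.70, next 9.05). It had 268 detected miRNAs, the fewest of the liver arrays, and a RIN of 9.1. The brain array of 1 h at RT was highest of 8 for miR-30d-5p (9.40, next 8.24).

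The change per 24 h at RT differed between tissues by limma. Liver minus heart was -0.78 for miR-30a-5p, -1.20 for miR-30b-5p, -1.13 for miR-30c-5p and -0.92 for miR-30e-5p. Brain minus liver was 0.86 for miR-30a-5p, 1.29 for miR-30b-5p, 1.14 for miR-30c-5p, 0.59 for miR-30d-5p and 0.96 for miR-30e-5p. Each tissue at RT lay on 1 slide of its own, so a difference between tissues and one between slides cannot be told apart.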

How the results depend on the processing

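For hours at RT in liver, all 5 guides were called under every alternative run, except that without the late liver arrays (24 to 96 h at RT), which was chosen after seeing the data, as were the slopes within each tissue at RT. With 1 array per time, the number of arrays limits the precision. Over all miRNAs the median slope with hours at RT was 0.00296 per h as deposited and 0.0168 without scaling, with 334 rising and 304 falling against 449 and 41. In heart at RT the split was 219 and 91 against 335 and 9, and with RIN over tissues 287 and 374 against 10 and 481. In brain against liver it was 472 and 119, and 289 and 260 under normexp with quantile normalization. Where the alternative is not itself fewer arrays or a stricter adjustment, the cause of a change below was not tested.

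Of the 5 guides, the number called in brain against heart was 3 under Bonferroni, 3 with arrays of 0 to 3 h alone and 1 with the excluded heart array. In brain against liver it was 2 under normexp with quantile normalization. For the RIN slope over tissues it was 0 without scaling, 0 under Bonferroni, 3 with the excluded heart array, 3 with slide as a fixed block, 0 with arrays of RIN over 6, 1 without the 2 arrays of lowest RIN and 0 without the late liver arrays. For the RIN slope in heart it was 5 and 4 with the 75th percentile over miRNAs detected on all arrays and over all miRNAs, 1 under quantile, 1 under normexp and 5 without the late liver arrays, which enter that fit through the shared spread. For the RIN slope in liver it was 0 without scaling, 0 under Bonferroni, 2 with the excluded heart array, 0 with slide as a fixed block, 0 with RIN over 6, 0 without the 2 lowest RIN and 1 without the late liver arrays. In brain it was 1 and 1 with the 75th percentiles. Differences of RIN slopes, without the late liver arrays, were called for 5 guides in liver against heart and 3 in brain against liver. In liver of low against high RIN it was 3 with the 75th percentile over miRNAs detected on all arrays, 2 under quantile and 3 under normexp. For hours at RT over tissues it was 2 without scaling and 3 under Bonferroni. In heart it was 1 with VSN refitted, 5 and 5 with the 75th percentiles, 0 without scaling, 1 with at least 10 arrays, 0 under Bonferroni, 0 without the arrays of 96 h and 4 without the late liver arrays. In liver it was 0 without the late liver arrays. In brain it was 3 and 5 with the 75th percentiles, 1 under quantile and 2 without the late liver arrays. For liver minus heart it was 2 under Bonferroni and 0 without the late liver arrays, and for brain minus liver 2 and 0. Without scaling these were 3 and 4. At 4 °C it was 2 with the 75th percentile over miRNAs detected on all arrays, 1 under quantile and 1 under normexp.

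Signs of values called in at least 1 of the 2 settings turned in these cases (log2). Liver minus heart of miR-30a-5p was 0.35 under quantile and 0.39 under normexp. Brain minus liver of miR-30a-5p was -0.46 and -0.65 with the 75th percentiles, -1.25 under quantile and -1.18 under normexp. That of miR-30d-5p was -0.31 and -0.24, and that of miR-30e-5p -0.20 and -0.18, under quantile and normexp. The RIN slope over tissues without scaling was -0.0568 for miR-30a-5p, -0.0516 for miR-30d-5p and -0.0335 for miR-30e-5p. With RIN over 6 it was -0.179, -0.131, -0.222, -0.210 and -0.241 for miR-30a-5p to miR-30e-5p. The RIN slope in liver without scaling was -0.0231 for miR-30a-5p and -0.00796 for miR-30e-5p. With RIN over 6 it was -0.311, -0.236, -0.373 and -0.493, and without the late liver arrays -0.117, -0.0505, -0.0871 and -0.158, for miR-30a-5p, miR-30b-5p, miR-30c-5p and miR-30e-5p. Without the late liver arrays the RIN slope of liver minus that of heart was -0.256, -0.232, -0.264 and -0.304 for the same 4, and that of brain minus liver 0.26 for miR-30c-5p and 0.314 for miR-30e-5p. The slope with hours at RT in heart without scaling was 4.61e-05 per h for miR-30b-5p and 0.000531 for miR-30c-5p. Values called in neither setting also changed sign, among them, without scaling, the RT slopes of the other 3 guides in heart and of all 5 in brain, the RIN slopes of all 5 in heart and brain, and the slopes of all 5 at 4 °C.

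Leaving out each array in turn gave counts of 3 to 5 for the RIN slope over tissues, 0 to 5 in liver, 0 to 3 for hours at RT in heart, 0 to 1 in brain, 2 to 5 for liver minus heart and 2 to 5 for brain minus liver. The other counts stayed at 5, 4 or 0. Of single values under the remaining alternatives, 990 kept sign and side of the threshold, 101 changed sign without a call, 86 lost and 62 gained the call and 36 turned. The labels give every sample the same replicate number, but the methods take the 3 tissues of a temperature from 1 animal. With the animal, or animal and time, as a fixed block the tissue counts stayed at 5, 5 and 4. With time as a random block at RT (correlation 0.0693) the counts were 2, 5 and 0 in heart, liver and brain, and 0, 5 and 5 for brain minus heart, liver minus heart and brain minus liver. These blocks were added after seeing the data.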
